A study of Mus musculus with 19 samples.

Results

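This account covers 1 comparison, male mouse embryonic stem cells kept in 2i/L against the same lines kept in S/L, both at passage 10. Its members are 4 of the 19 RNA-seq libraries of the series, the J-34 and J-35 lines in 2i/L and the J-34 and J-35 lines in S/L, and all 12942 genes of the deposited table. They were chosen by medium, passage and line as the sample titles give them. Cells of each line at passage 4 spent 6 passages in the named medium. In the usage of the field, 2i/L is a medium with an inhibitor of MEK, an inhibitor of GSK3 and the cytokine LIF, and S/L is serum with LIF. The labels give no composition, so the media are called by their names. All cells grew on mouse embryonic fibroblast feeders, were split with trypsin and were sorted as SSEA1-positive before RNA was extracted. RNA was depleted of ribosomal RNA and sequenced as paired ends after a strand-marking library kit. Each line contributed 1 library per medium, and nothing in the labels says whether a line was cultured more than once, so p-values measure only the spread between libraries.

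MEK passes the FGF and receptor tyrosine kinase signal on to ERK, which switches on its own inhibitors, so the transcripts of those inhibitors are a common readout of the pathway. GSK3 marks beta-catenin for destruction, and when GSK3 is blocked, beta-catenin gathers in the nucleus and acts on targets through TCF and LEF factors. LIF acts through JAK and STAT3. In mouse embryonic stem cells, ERK activity is tied to leaving the naive state, and the inhibitor pair is widely used to hold cells in that state.

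The libraries were deep and alike in their totals. The steps between low CPM values gave depths of 45.4 M and 44.2 M reads in 2i/L and 34.7 M and 38.4 M reads in S/L, in the order J-34, J-35. That order is used for every pair of values below. Genes listed summed to 465897 and 465175 CPM in 2i/L, against 443796 and 454609 CPM in S/L, and the rest of each library's reads lay outside these genes. At these depths 3 reads equal 0.066 and 0.068 CPM in 2i/L and 0.087 and 0.078 CPM in S/L. A gene below that is treated as near the limit of detection, and its fitted change depends on the constant added before taking logs, so it is no bound. Intervals and floors of this kind cover counting error only. Of the embryonic stem cell markers, the pluripotency factor Pou5f1 had 326 and 321 CPM in 2i/L, against 519 and 554 CPM in S/L, and the other markers measured were also well above the limit in all libraries. The gate for SSEA1 should remove feeders, but fibroblast genes were present in both media and are given in a paragraph of their own below.

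Of 12942 genes tested with limma on log2(CPM + 0.5), 2941 (22.7%) rose and 2268 (17.5%) fell in 2i/L at an adjusted p under 0.05, which is 40.2% of all genes. The median change over all genes was 0.04. Changes of at least 2-fold were found for 1094 genes that rose (8.45% of all) and 823 that fell (6.36%). Values of the media did not overlap for 75.6% of all genes, so a gene whose groups stand apart is common here. These shares are the background for every count that follows: a list with about 4 in 10 of its genes called looks like the whole table. Log2 changes are 2i/L minus S/L with their standard error, and a scale with 0.5 added understates the change of genes with low CPM. In bulk RNA, fewer cells of a type and less RNA per cell cannot be told apart.

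Both lines gave nearly the same answer. The difference 2i/L minus S/L in J-34 and that in J-35 had a Pearson r of 0.920 and a Spearman rho of 0.853 across genes, which share libraries and are not independent replicates. All but 3 of the 5209 called genes had the same direction in both lines, and the exceptions, among them 1600016N20Rik and Gm7901, lay close to the threshold. Among 9742 genes with at least 5 CPM in a library of the comparison, 49 had differences that were more than 1 log2 unit apart between the lines. Of these 49, 29 carry names of small structured RNAs such as snoRNA and spliceosomal RNA. U4, a spliceosomal RNA, had 1060 and 1738 CPM in 2i/L, against 1002 and 564 CPM in S/L. Over all 62 such RNAs at that level, the median difference was -0.19 in J-34 and 0.67 in J-35, so they differed between the lines within a medium. The rest of the 49 included the matrix gene Col3a1 and the tubulin gene Tuba3b, both far higher in 2i/L in both lines.

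**Figure D1:**
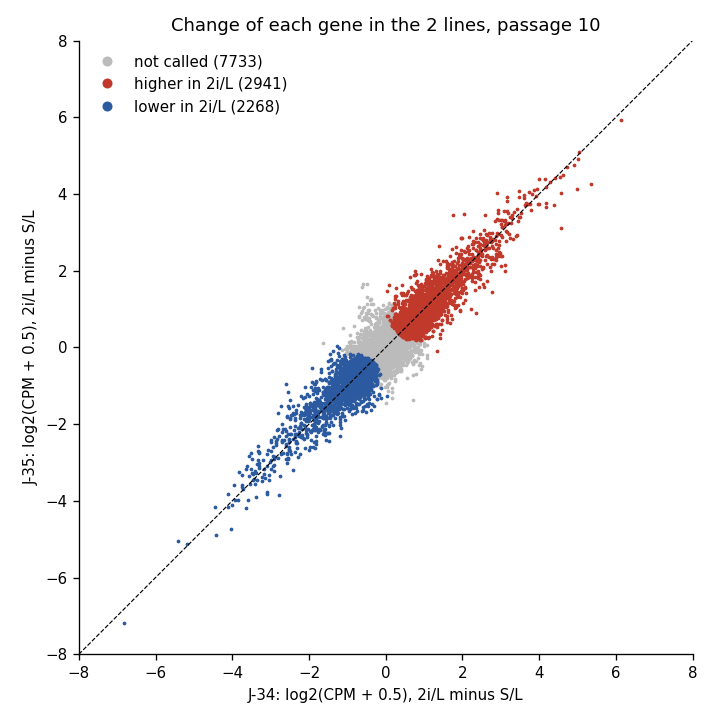
Change of each gene in J-34 (x axis) and in J-35 (y axis), both as log2(CPM + 0.5) in 2i/L minus S/L, for 12942 genes. Red points are the 2941 genes that rose, blue points the 2268 that fell and grey points the rest; the called genes lie along the diagonal in both lines.

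The feedback arm of the ERK pathway was low in 2i/L. Of 9 ERK feedback inhibitors 8 fell and none rose, against 17.5% of all genes falling, and their median change was -1.24. The Sprouty gene Spry4, whose product blocks receptor signalling, had 0.20 and 0.11 CPM in 2i/L, against 79.4 and 88.5 CPM in S/L. In 2i/L only a few reads were left in either line. Dusp6 and Dusp4, phosphatases that act on ERK, fell by 4.14 ± 0.19 on the log2 scale and 3.17 ± 0.20 on the log2 scale. Weaker falls were seen for Spry2 (-1.45 ± 0.16), Spred1 (-1.24 ± 0.17), Spry1 (-0.84 ± 0.18) and Spred2 (-0.60 ± 0.16), which all act above ERK. Spred3 (-1.14 ± 0.25) was low throughout. Dusp5, which holds ERK in the nucleus, had 5.94 and 6.70 CPM in 2i/L, against 6.05 and 6.01 CPM in S/L, and its change did not pass (0.06 ± 0.19, adjusted p = 0.827).

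The downstream factors of ERK did not move together. Of 11 ETS factors and immediate early genes measured, 6 fell and 1 rose. The sharpest contrast lay between a pair of close relatives of the PEA3 group of ETS factors. Etv4 had 10.9 and 11.6 CPM in 2i/L, against 90.1 and 91.8 CPM in S/L, a change of -2.96 ± 0.21. Etv5 had 198 and 208 CPM in 2i/L, against 77.9 and 88.4 CPM in S/L, a rise of 1.29 ± 0.15 (adjusted p = 1.26e-08). Thus 1 relative lay about 8-fold lower and the other more than 2-fold higher in the same libraries. Another relative, Etv1, had 1.91 and 2.15 CPM in 2i/L, against 2.88 and 4.55 CPM in S/L and fell by 0.71 ± 0.24 on the log2 scale. Among early genes, Egr1 (-1.70 ± 0.24), Junb (-1.60 ± 0.19) and Phlda1 (-1.12 ± 0.26) fell, while Fos (-0.42 ± 0.27, adjusted p = 0.22) and Jun (0.34 ± 0.20, adjusted p = 0.172) did not pass.

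Receptors and ligands that feed into ERK shifted in both directions. Of 27 receptor tyrosine kinases 11 rose and 4 fell. Kit, the receptor of stem cell factor, had 241 and 245 CPM in 2i/L, against 51.8 and 49.3 CPM in S/L. Epha4, an ephrin receptor, had 77.9 and 84.5 CPM in 2i/L, against 9.66 and 8.07 CPM in S/L. Ephb4 (1.74 ± 0.15), Tek (1.44 ± 0.22) and the insulin receptor gene Insr (0.99 ± 0.18) also rose. Epha1 went the other way, with 0 and 0.02 CPM in 2i/L, against 3.63 and 4.74 CPM in S/L, which in 2i/L is at or near the limit of detection. Ddr1, a collagen receptor, fell (-1.44 ± 0.20) while its relative Ddr2 rose (1.98 ± 0.25). Among 5 FGF ligands, Fgf17 (-2.51 ± 0.26) and Fgf1 (-2.15 ± 0.26) fell and Fgf3 (1.17 ± 0.23) rose. Fgf4, the main FGF that these cells make for themselves, had 127 and 136 CPM in 2i/L, against 124 and 152 CPM in S/L and did not pass (-0.06 ± 0.15, adjusted p = 0.775). Of the FGF receptors, Fgfr1 did not pass (0.05 ± 0.15, adjusted p = 0.81), Fgfr4 fell (-1.51 ± 0.25), and Fgfr3 (1.52 ± 0.33) and the decoy receptor Fgfrl1 (1.55 ± 0.20) rose.

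**Figure D2:**
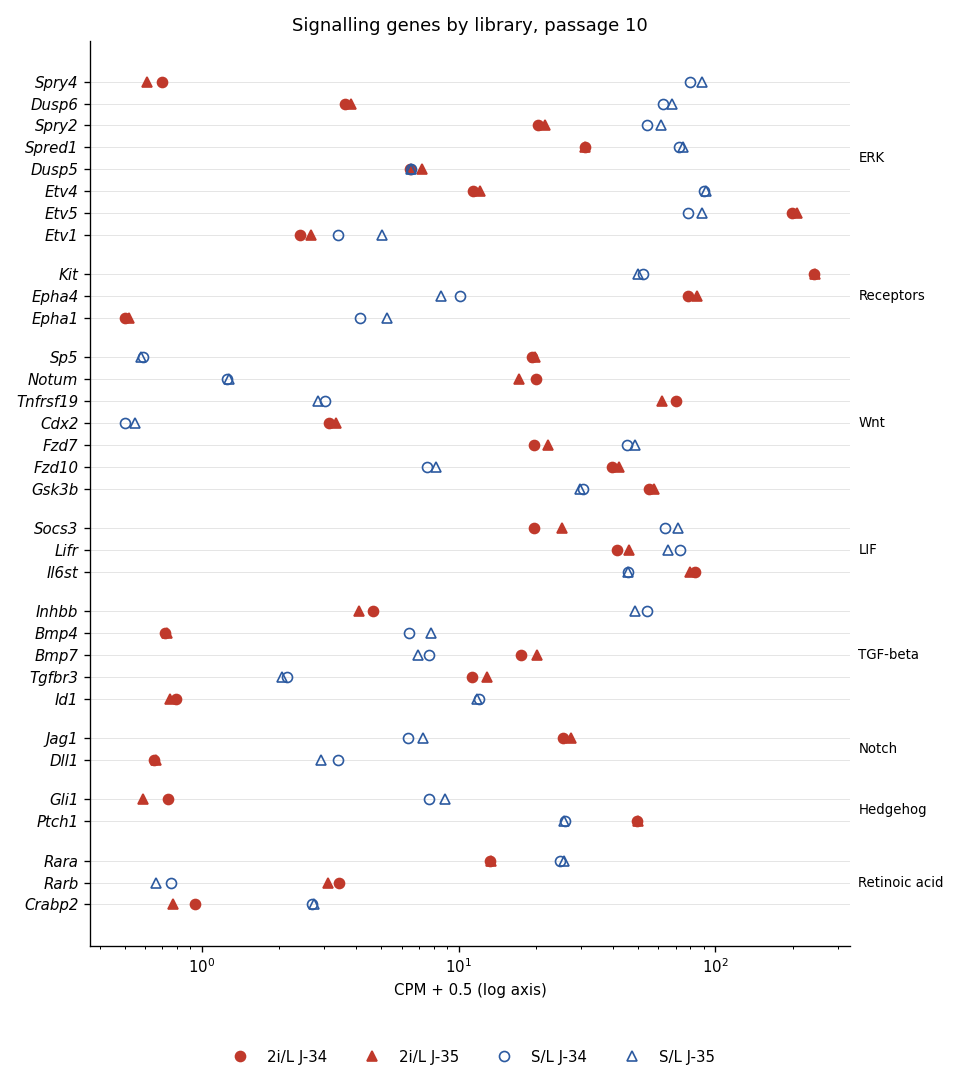
CPM + 0.5 on a log axis for genes of the ERK, Wnt, LIF, TGF-beta, Notch, Hedgehog and retinoic acid pathways, 1 row per gene. Filled red symbols are 2i/L and open blue symbols S/L, with circles for J-34 and triangles for J-35; Spry4, Etv4 and Gli1 lie lower in 2i/L, and Etv5, Sp5 and Rarb lie higher.

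Direct Wnt targets were high in 2i/L. Of 14 measured, 11 rose and 2 fell, with a median of 1.69. Sp5, a zinc finger factor and a standard beta-catenin target, had 18.9 and 19.3 CPM in 2i/L, against 0.09 and 0.08 CPM in S/L. Notum, a secreted enzyme that inactivates Wnt proteins, had 19.4 and 16.7 CPM in 2i/L, against 0.75 and 0.78 CPM in S/L. Tnfrsf19, a receptor of the TNF family known as Troy, had 69.8 and 61.8 CPM in 2i/L, against 2.51 and 2.34 CPM in S/L. In S/L Sp5 was at about the limit of detection, and in all of these genes the media were far apart. Cdx2, the caudal factor of trophoblast and tailbud, had 2.64 and 2.83 CPM in 2i/L, against 0 and 0.05 CPM in S/L, which in S/L is below 3 reads. The feedback ligases Znrf3 (0.75 ± 0.20) and Rnf43 (0.60 ± 0.24), which remove Wnt receptors from the surface, rose less, and Rnf43 lost its call whenever 1 library was left out. Fzd7, a Wnt receptor that is itself a target, went against the list with 19.19 and 21.8 CPM in 2i/L, against 44.9 and 48.3 CPM in S/L (-1.17 ± 0.18).

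The letters CTTTGAT, which TCF and LEF factors bind, were looked for on both strands in RefSeq promoter windows of build GRCm38.p6, from 250 bases before to 50 after each start. They stood in 2.9% of 9974 measured genes with a window, in 2.5% of genes that rose and in 2.8% of those that fell. Of the 10 Wnt targets with a window, 2 held them, Sp5 and Tnfrsf19. Both stretches are shown because these genes are among the largest rises, with the motif, or its reverse complement ATCAAAG, in capitals. The Sp5 stretch is chr2:70474783-70474862 on the plus strand, and the Tnfrsf19 stretch, before 1 of its listed starts, is chr14:61038148-61038227 on the minus strand.
Sp5: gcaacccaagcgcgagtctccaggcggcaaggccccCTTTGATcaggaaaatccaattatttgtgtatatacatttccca
Tnfrsf19: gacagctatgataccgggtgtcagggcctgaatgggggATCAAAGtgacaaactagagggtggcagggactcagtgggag
A match is a description of letters and does not show binding.

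The parts of the Wnt machinery itself moved in both directions, in short lists to be read against the 40.2% of all genes called. Of 11 Wnt receptors 5 rose and 1 fell, without Fzd7, which is counted among the targets above and fell. Fzd10 had 39.04 and 41.6 CPM in 2i/L, against 7.06 and 7.70 CPM in S/L. Fzd8 had 10.8 and 10.1 CPM in 2i/L, against 2.91 and 2.73 CPM in S/L. Fzd5 had 41.6 and 41.95 CPM in 2i/L, against 83.5 and 78.3 CPM in S/L. So Fzd10 (2.37 ± 0.17) and Fzd8 (1.72 ± 0.20) stood higher and Fzd5 (-0.94 ± 0.17) lower in both lines, while the coreceptors Lrp5 (-0.29 ± 0.18, adjusted p = 0.204) and Lrp6 (0.07 ± 0.16, adjusted p = 0.762) did not pass. Of the 4 Wnt ligands measured, Wnt7b (-1.75 ± 0.28), Wnt3a (-1.38 ± 0.26) and Wnt6 (-0.80 ± 0.23) fell and Wnt5b (0.70 ± 0.24) rose, all at low levels. None of 4 secreted inhibitors passed. In the destruction complex and the nuclear factors, 2 of 11 rose. Gsk3b, which encodes the GSK3 beta kinase, had 54.5 and 57 CPM in 2i/L, against 30.1 and 29.2 CPM in S/L (0.90 ± 0.14), whereas its relative Gsk3a did not pass (-0.24 ± 0.17, adjusted p = 0.275). Tcf7l1, the TCF factor that mainly represses, rose, with 8.76 and 10.02 CPM in 2i/L, against 4.09 and 5.02 CPM in S/L. Ctnnb1, the gene of beta-catenin, did not pass (0.26 ± 0.15, adjusted p = 0.19).

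Hox genes, which pattern the body axis and are silenced by Polycomb in these cells, were higher at low absolute levels. Of 14 measured genes on a list of Hox genes, Cdx genes and Hox cofactors 11 rose and none fell, with a median of 1.76. Hoxa10 had 6.60 and 6.70 CPM in 2i/L, against 0.06 and 0.03 CPM in S/L. Meis2, a cofactor of Hox proteins, had 21.9 and 20.8 CPM in 2i/L, against 0.35 and 0.31 CPM in S/L. In S/L Hoxa10 was at or below 3 reads, so its change of 3.71 ± 0.27 is a fitted value. The genes that rose lie in all 4 Hox clusters, with Hoxb9 (2.12 ± 0.24), Hoxc4 (1.78 ± 0.24) and Hoxd9 (2.27 ± 0.24) among them. Hoxd1 (-0.29 ± 0.24), Meis1 (0.32 ± 0.23) and Pbx3 (0.49 ± 0.21) did not pass.

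Pluripotency factors split by class. Of 20 naive factors 7 rose and 4 fell. Klf2, a factor through which ERK inhibition holds naive cells, had 50.2 and 52.3 CPM in 2i/L, against 19.5 and 22.4 CPM in S/L (1.28 ± 0.21). Fbxo15, a marker of undifferentiated cells, had 208 and 191 CPM in 2i/L, against 71.2 and 71.9 CPM in S/L (1.47 ± 0.16). Klf5 (-0.02 ± 0.17), Zfp42 (0.03 ± 0.17) and Tbx3 (-0.41 ± 0.18) did not pass, whereas Nr0b1 (-0.80 ± 0.20) and Tdgf1 (-0.89 ± 0.16) fell. Of 16 general factors none rose and 8 fell. Lin28b, which like Lin28a blocks the maturation of the let-7 microRNA, had 1.10 and 0.77 CPM in 2i/L, against 17.4 and 11.8 CPM in S/L, and so both Lin28 genes were low in 2i/L. Dppa4 fell (-1.32 ± 0.15), while Dppa2, the partner of Dppa4, did not pass (-0.08 ± 0.17, adjusted p = 0.756).

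Of 14 factors of the formative and primed states, 7 fell and 5 rose. Tcf15, a factor of cells primed for the epiblast, had 1.08 and 1.31 CPM in 2i/L, against 16.1 and 16.4 CPM in S/L. Pou3f1 (-1.30 ± 0.25), Sox4 (-1.19 ± 0.22), Sox11 (-1.38 ± 0.24) and Foxd3 (-1.07 ± 0.22) also fell. Zic2 went the other way, with 32.1 and 26.1 CPM in 2i/L, against 4.24 and 5.41 CPM in S/L, and its neighbour in function Zic5 rose too (1.04 ± 0.18). Otx2, a primed-state factor, had 1.94 and 3.78 CPM in 2i/L, against 3.31 and 5.57 CPM in S/L; its groups overlapped and it did not pass (-0.57 ± 0.25, adjusted p = 0.0642).

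The LIF pathway held more falls than rises, 6 against 3 of 16 (1 rise without the J-34 S/L library). Socs3, the feedback inhibitor that STAT3 switches on, had 19.17 and 24.9 CPM in 2i/L, against 63.1 and 71.2 CPM in S/L (-1.60 ± 0.16). The kinase gene Pim3 (-1.02 ± 0.15), Socs2 (-0.80 ± 0.17) and Junb fell as well. The receptor subunits moved apart, since Lifr had 40.9 and 45.7 CPM in 2i/L, against 72.2 and 64.7 CPM in S/L (-0.65 ± 0.15) and Il6st, which encodes gp130, had 82.7 and 78.9 CPM in 2i/L, against 45.02 and 45.02 CPM in S/L (0.84 ± 0.14). Stat3 did not pass (-0.13 ± 0.16, adjusted p = 0.535).

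Of 12 ligands of the TGF-beta and BMP pathways 4 rose (2 without the J-35 2i/L or the J-34 S/L library) and 4 fell, while the changes among their receptors were all rises. Inhbb, a subunit of activin, had 4.14 and 3.60 CPM in 2i/L, against 53.8 and 48.2 CPM in S/L. Bmp4, which acts with LIF on these cells, had 0.22 and 0.23 CPM in 2i/L, against 5.91 and 7.29 CPM in S/L. Bmp7, by contrast, had 16.9 and 19.7 CPM in 2i/L, against 7.15 and 6.45 CPM in S/L. Thus Inhbb (-3.56 ± 0.23) and Bmp4 (-3.29 ± 0.23) fell by more than 8-fold, and Bmp7 (1.36 ± 0.25) and Lefty2 (1.18 ± 0.25) rose. Of 14 receptors and Smads 8 rose and none fell, led by Tgfbr3 (2.52 ± 0.21), Tgfbr2 (1.64 ± 0.25), Acvr1 (1.60 ± 0.22) and the signal carrier Smad3 (1.32 ± 0.17). Among the BMP targets, Id1 had 0.29 and 0.25 CPM in 2i/L, against 11.5 and 11.3 CPM in S/L. Id3 fell less (-1.19 ± 0.27), and Id2 (-0.01 ± 0.24) and Id4 (-0.27 ± 0.23) did not pass, so the Id family was not uniformly lower.

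Other signalling pathways each had a few large movers. In the Notch pathway 5 of 15 rose (1 to 3 with 1 library left out) and 4 fell. The ligand Jag1 had 25.1 and 26.9 CPM in 2i/L, against 5.85 and 6.79 CPM in S/L, and the ligand Dll1 had 0.15 and 0.16 CPM in 2i/L, against 2.88 and 2.42 CPM in S/L. The Notch target Hes1 did not pass (-0.16 ± 0.16, adjusted p = 0.446). In the Hedgehog pathway Gli1, usually read as the output of the pathway, had 0.24 and 0.09 CPM in 2i/L, against 7.15 and 8.35 CPM in S/L, whereas the receptor gene Ptch1, another target, had 49.2 and 49.6 CPM in 2i/L, against 25.4 and 25.4 CPM in S/L. The 2 targets thus went in opposite directions (-3.64 ± 0.24 and 0.95 ± 0.16). Of 8 Hedgehog genes measured, 2 rose and only Gli1 fell. Evc, a ciliary gene needed for Hedgehog signalling but not on that list, fell with Gli1 (-3.54 ± 0.23). In the retinoic acid pathway 5 of 13 genes rose and 3 fell. The receptor genes Rara (-0.92 ± 0.19) and Rarg (-1.52 ± 0.15) fell and Rarb, which retinoic acid induces, rose (2.20 ± 0.23). The synthesis genes Aldh1a2 (1.89 ± 0.23) and Aldh1a3 (2.19 ± 0.25) rose, and the carrier gene Crabp2 fell (-1.67 ± 0.25).

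Every gene of DNA methylation and its removal that changed by at least 2-fold fell, 4 of the de novo and maintenance genes and 3 of the Tet and repair genes. Of 9 de novo and maintenance genes 4 fell and none rose, the fourth beside the Dnmt3 genes being Zfp57, which protects imprints, with 59.7 and 63.6 CPM in 2i/L, against 178 and 146 CPM in S/L (-1.38 ± 0.16). Of 14 Tet and repair genes 5 fell and 2 rose (none without the J-34 2i/L library, and 1 without the J-35 2i/L or the J-34 S/L library). Tet1, which oxidises methylcytosine, had 180.2 and 209 CPM in 2i/L, against 416 and 355 CPM in S/L (-0.99 ± 0.17), and Tet2 fell by 0.56 ± 0.17 on the log2 scale. Gadd45a, linked to repair-coupled demethylation, had 6.95 and 5.27 CPM in 2i/L, against 30.6 and 28.7 CPM in S/L (-2.20 ± 0.19). Dnmt1 and its partner Uhrf1 did not pass (0.16 ± 0.15 and 0.04 ± 0.16).

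Of 31 Polycomb genes 8 rose and 6 fell, a share close to that of all genes. Of 11 PRC2 genes 2 rose and 3 fell. In PRC2, which methylates histone H3 lysine 27, the core subunit gene Suz12 had 203 and 222 CPM in 2i/L, against 92.03 and 81.7 CPM in S/L (1.29 ± 0.16). Mtf2 rose (0.69 ± 0.16) while its relative Phf19, which also guides PRC2 to chromatin, had 2.16 and 2.10 CPM in 2i/L, against 7.78 and 7.78 CPM in S/L (-1.65 ± 0.22). The catalytic subunit gene Ezh2 did not pass (0.32 ± 0.16, adjusted p = 0.115). In PRC1 6 of 20 rose and 3 fell. Among the Cbx subunits that read the mark, Cbx7, the main one of embryonic stem cells, had 41.1 and 40.2 CPM in 2i/L, against 73.5 and 73.8 CPM in S/L (-0.85 ± 0.17), and Cbx8 (2.06 ± 0.23) and Cbx2 (0.57 ± 0.18) rose. Phc1, a bridging subunit, had 47.9 and 60.6 CPM in 2i/L, against 194 and 224 CPM in S/L (-1.94 ± 0.18), and Bmi1 rose (1.07 ± 0.19). Of 29 other histone methylation enzymes 7 rose and 1 fell, with the demethylase gene Kdm3a at 116 and 122 CPM in 2i/L, against 32.4 and 34.6 CPM in S/L (1.82 ± 0.19).

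Germline genes, many of which are kept silent by DNA methylation, moved by class. Of 61 measured, 30 rose and 15 fell. Of 15 testis genes 13 rose and none fell, whereas of 16 piRNA pathway genes 6 rose and 8 fell. Aurkc, the meiotic Aurora kinase, had 31.3 and 31.1 CPM in 2i/L, against 1.53 and 1.87 CPM in S/L. Tdrd12, of the piRNA pathway, had 72.9 and 64.7 CPM in 2i/L, against 13.3 and 16.01 CPM in S/L. Fkbp6, of the same pathway, had 46.4 and 40.1 CPM in 2i/L, against 5.91 and 7.44 CPM in S/L. Both rose. Others that act in it fell. Mael had 1.01 and 1.18 CPM in 2i/L, against 15.7 and 17.6 CPM in S/L. Tdrd1 had 0.31 and 0.27 CPM in 2i/L, against 2.85 and 2.34 CPM in S/L. Piwil2, a Piwi protein gene, had 15.4 and 13.8 CPM in 2i/L, against 44.1 and 41.6 CPM in S/L. So partners of 1 pathway stood on opposite sides. In the meiotic class Dazl (3.97 ± 0.23), Sohlh2 (2.32 ± 0.19), Nanos3 (2.13 ± 0.25), Rec8 (1.44 ± 0.20) and Hormad1 (1.28 ± 0.19) rose, and Ddx4 (-1.38 ± 0.19), Sycp3 (-1.14 ± 0.26), Slc25a31 (-0.89 ± 0.28) and Tex11 (-0.81 ± 0.20) fell. The synaptonemal genes Sycp1 (-0.01 ± 0.22), Syce1 (0.16 ± 0.23) and Syce2 (-0.02 ± 0.16) did not pass. Tex19.1 and Tex19.2, Tuba3a and Tuba3b, and the Xlr3 and Xlr4 genes are near-identical copies, so their separate values are uncertain.

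**Figure D3:**
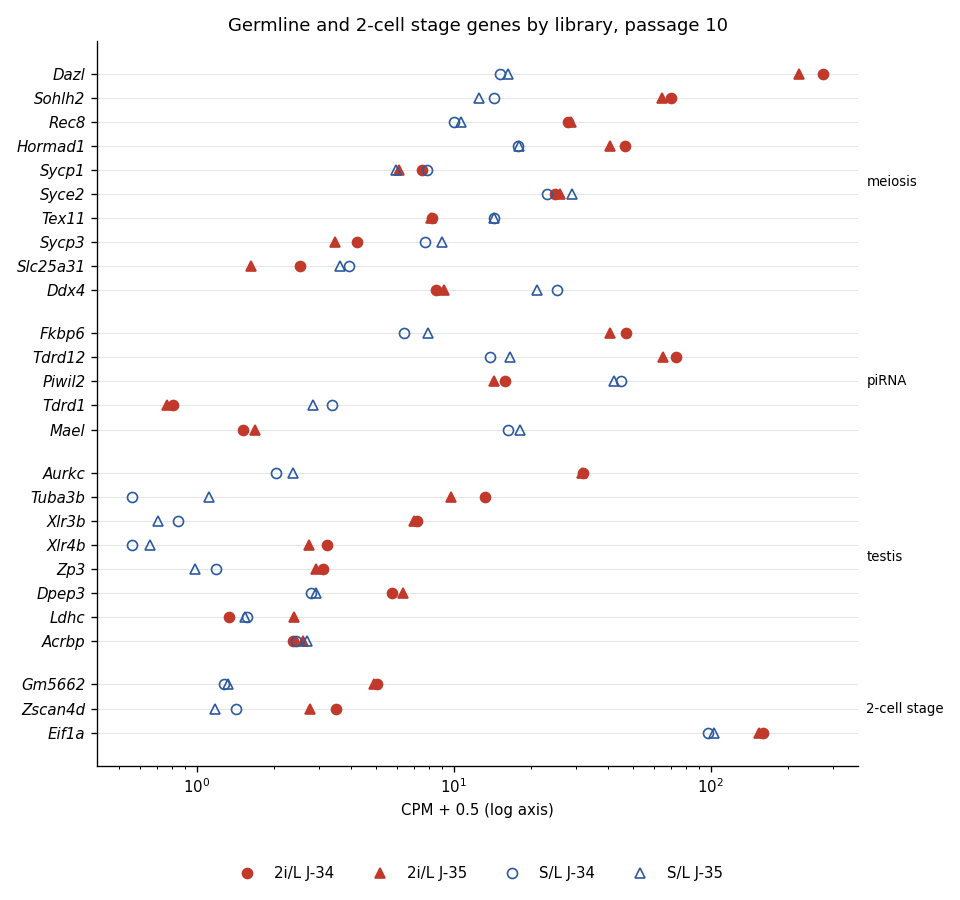
CPM + 0.5 on a log axis for germline and 2-cell stage genes, 1 row per gene, grouped by class. Filled red symbols are 2i/L and open blue symbols S/L, with circles for J-34 and triangles for J-35; the testis genes other than Ldhc and Acrbp lie higher in 2i/L, and piRNA genes lie on both sides.

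The E-box letters CACGTG, bound by MAX dimers such as MGA with MAX, stood in 12.1% of all promoter windows. Of the 55 germline genes with a window 34.5% held them, and 52.7% held the shorter ACGTG that the E-box contains. Split by their call, 8 of the 12 germline genes that fell and 6 of the 29 that rose held CACGTG, shares of 66.7% and 20.7%. Over all genes 273 of 2279 that rose with a window and 214 of 1766 that fell held CACGTG. The E2F letters TTCCCGC were held by 41.7% of the germline genes that fell and 10.3% of those that rose, against 10.2% of all genes. The split uses the same calls as the test and has few genes, so it is a description with no test. The stretches of 3 genes that fell are shown with the E-box in capitals, Sycp3 at chr10:88459477-88459556 on the plus strand, Slc25a31 at chr3:40708731-40708810 on the plus strand and Ddx4 at chr13:112652311-112652390 on the minus strand.
Sycp3: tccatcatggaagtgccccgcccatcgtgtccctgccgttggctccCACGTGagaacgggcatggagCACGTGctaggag
Slc25a31: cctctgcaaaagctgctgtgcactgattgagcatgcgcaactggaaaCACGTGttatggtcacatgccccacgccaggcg
Ddx4: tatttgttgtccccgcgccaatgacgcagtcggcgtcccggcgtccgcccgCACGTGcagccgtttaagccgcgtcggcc
Dazl, which rose, had no CACGTG in its window, whereas Hormad1 and Fkbp6, which also rose, held it. Mga (0.09 ± 0.17), Max (0.22 ± 0.17), Pcgf6 (-0.17 ± 0.15) and L3mbtl2 (-0.31 ± 0.15), members of a Polycomb complex that silences germline genes, did not pass.

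Genes of the 2-cell stage rose in 6 of 7 cases. Gm5662 had 4.53 and 4.41 CPM in 2i/L, against 0.78 and 0.83 CPM in S/L. Zscan4d had 2.99 and 2.26 CPM in 2i/L, against 0.92 and 0.68 CPM in S/L. The Zscan4 copies share reads, so their values are uncertain. Eif1a rose less (0.65 ± 0.15). Imprinted genes moved in both directions, with 11 of 41 higher and 13 lower. The 6 rises among paternally expressed genes were 2 to 4 with 1 library left out. Igf2r, a growth-limiting receptor, had 267 and 276 CPM in 2i/L, against 128 and 107 CPM in S/L (1.21 ± 0.17). Grb10, an adaptor that restrains insulin signalling, had 85.5 and 88.8 CPM in 2i/L, against 293 and 312 CPM in S/L (-1.79 ± 0.28). Usp29 rose (1.97 ± 0.24), although Peg3, which shares its promoter region, fell (-1.16 ± 0.16).

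Glycolytic enzyme genes were mostly higher. Of 22 glycolytic enzyme genes 18 rose, 2 fell and 2 did not pass, with a median of 0.66, and the list summed to 7673 and 7989 CPM in 2i/L, against 3572 and 4585 CPM in S/L. Pfkp, an isoform of the committing step, had 317 and 331 CPM in 2i/L, against 55.1 and 61.2 CPM in S/L. Ldha, which makes lactate, had 835 and 862 CPM in 2i/L, against 166 and 239.96 CPM in S/L. Pgk1 had 287 and 292 CPM in 2i/L, against 80.6 and 111 CPM in S/L. The lactate exporter gene Slc16a3 had 74.9 and 77.9 CPM in 2i/L, against 8.91 and 14.6 CPM in S/L. Both S/L values lay below both 2i/L values in each, but the lines differed. J-35 was higher than J-34 for 18 of 22 enzymes in 2i/L, with a median log2 difference of 0.06, and for 17 of 22 in S/L, with a median of 0.25. Leaving out 1 library at a time, 12 to 15 of the 22 rose. The enolase genes split, Eno1 rising (0.61 ± 0.17) and the tissue-specific Eno2 (-1.63 ± 0.24) and Eno3 (-1.93 ± 0.22) falling. Several of these genes, Gapdh and Tpi1 among them, have processed copies in the genome that could share reads.

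Genes of the step after glycolysis held no rises. Of 13 genes of pyruvate entry into mitochondria none rose and 2 fell. Pdha1, a subunit of pyruvate dehydrogenase, had 88.2 and 83.3 CPM in 2i/L, against 166 and 166 CPM in S/L (-0.95 ± 0.14), and its inhibitor Pdk1, a gene that hypoxia-inducible factor also drives, had 67.1 and 68.2 CPM in 2i/L, against 133 and 141 CPM in S/L (-1.02 ± 0.16). Of 22 genes of the citric acid cycle and its side reactions 3 rose and 1 fell. The rises were the cytosolic NADPH makers Me1 (2.07 ± 0.19) and Idh1 (1.35 ± 0.18) and the subunit gene Suclg2 (0.39 ± 0.14), whose call was lost whenever 1 library was left out. Of 70 nuclear genes of the respiratory chain 3 rose (none without the J-34 S/L library and 1 without the J-34 2i/L library) and 5 fell (1 or 2 with 1 library left out), far below the background share, and with TMM scaling 4 rose and 18 fell. The 60 cytosolic ribosome genes held no call in limma, none at an unadjusted p under 0.05, and with TMM scaling 4 fell. The ribosome genes were higher in J-35 than J-34 for 56 of 60 genes in S/L, but for 23 of 60 in 2i/L.

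Hypoxia response genes outside glycolysis rose for 18 of 28 and fell for 2, with a median of 1.07. The list holds targets of the hypoxia-inducible factor and also genes of the factor and its turnover, Hif1a, Arnt and Vhl. P4ha1, a collagen prolyl hydroxylase, had 151 and 159.7 CPM in 2i/L, against 19.97 and 27.1 CPM in S/L. Bnip3, a mitophagy receptor, had 76.2 and 85.8 CPM in 2i/L, against 9.05 and 19.3 CPM in S/L. Ak4, a mitochondrial adenylate kinase, had 227 and 231 CPM in 2i/L, against 39.95 and 41.6 CPM in S/L. Egln3 (2.17 ± 0.20) and Egln1 (1.53 ± 0.16), the oxygen sensors that mark the factor for destruction, and Ndrg1 (2.73 ± 0.20) rose as well. Hif1a, which is regulated mainly through its protein, had 82.99 and 78.8 CPM in 2i/L, against 82.2 and 80 CPM in S/L and did not pass (adjusted p = 0.986). Vegfa (0.34 ± 0.15) and Adm (0.54 ± 0.23) did not pass either. Plod1 (-1.65 ± 0.17) and Arnt (-0.52 ± 0.16) fell. Pdk1, which the factor also drives and which fell, is counted with pyruvate entry and not on this list. Values in S/L again differed between the lines for Bnip3 and Egln3, the J-35 level being about 2-fold that of J-34.

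**Figure D4:**
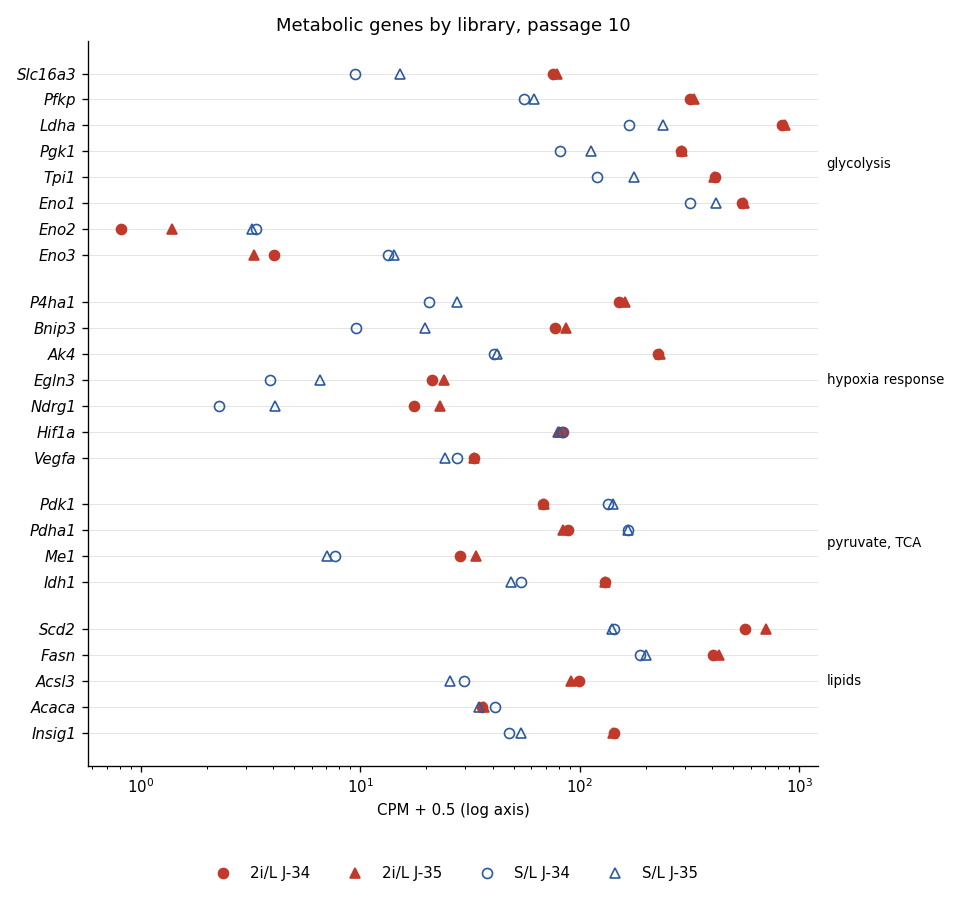
CPM + 0.5 on a log axis for glycolysis, hypoxia-response, pyruvate and lipid synthesis genes, 1 row per gene. Filled red symbols are 2i/L and open blue symbols S/L, with circles for J-34 and triangles for J-35; most glycolytic, hypoxia and lipid genes lie higher in 2i/L, and Pdk1, Pdha1, Eno2 and Eno3 lie lower.

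The core letters of the hypoxia response element, ACGTG, stood in 29.8% of all promoter windows. They stood in 60.0% of the 25 glycolysis and transport genes with a window and in 63.6% of the 22 other hypoxia response genes. The core is short and lies inside the E-box CACGTG, which 5 of the 25 and 4 of the 22 held. Ldha, P4ha1 and Bnip3 are shown with the core in capitals, where CACGTG holds it on both strands and CACGT on the opposite strand, at chr7:46845644-46845783 on the plus strand, chr10:59323216-59323295 on the plus strand and chr7:138909577-138909656 on the minus strand.
Ldha: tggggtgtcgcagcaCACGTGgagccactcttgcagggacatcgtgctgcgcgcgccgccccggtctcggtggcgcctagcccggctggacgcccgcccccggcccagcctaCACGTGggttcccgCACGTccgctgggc
P4ha1: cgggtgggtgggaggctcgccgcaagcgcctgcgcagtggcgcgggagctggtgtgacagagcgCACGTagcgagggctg
Bnip3: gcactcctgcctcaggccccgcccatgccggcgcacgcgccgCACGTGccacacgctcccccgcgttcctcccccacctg
Of the 15 glycolysis and transport genes that held the core 14 rose and none fell, and of the 10 without it 6 rose and 2 fell. Of the other hypoxia response genes, 10 of the 14 with the core rose and none fell, and 4 of the 8 without it rose and 2 fell. Over all genes with a window, 716 of 2279 that rose and 504 of 1766 that fell held the core, 31.4% and 28.5%. Among germline genes the core went the other way, held by 11 of the 12 that fell (91.7%) and 12 of the 29 that rose (41.4%). These splits use the calls given above and are a description with no test. Hif1a, which did not pass, also held the core.

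Lipid synthesis genes were mostly higher. Of 15 genes of fatty acid synthesis and desaturation 10 rose and 1 fell, with a median of 0.90. Scd2, a desaturase of fatty acids, had 568 and 705 CPM in 2i/L, against 143 and 140.02 CPM in S/L. Fasn, the fatty acid synthase gene, had 403 and 431 CPM in 2i/L, against 187 and 200.2 CPM in S/L. Acsl3, which activates fatty acids, had 98.1 and 90.99 CPM in 2i/L, against 29.1 and 25.2 CPM in S/L. Scd1 (1.93 ± 0.17), Acacb (1.39 ± 0.19) and Acly (0.95 ± 0.15) rose with them, whereas Acaca (-0.07 ± 0.18) and Elovl6 (0.15 ± 0.15) did not pass. Of 24 cholesterol genes 11 rose and 1 fell, with Insig1 (1.50 ± 0.17) among those that rose. Of 19 fatty acid oxidation genes, 6 rose and 1 fell.

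Of 31 genes induced by ATF4, the factor of the amino acid and stress response, 13 fell (8 to 10 with 1 library left out, fewest without the J-34 2i/L library) and 4 rose. Chac1 had 6.47 and 6.52 CPM in 2i/L, against 16.3 and 20.2 CPM in S/L. Trib3 had 13.4 and 12.9 CPM in 2i/L, against 34.4 and 36.1 CPM in S/L. The arginine transporter gene Slc7a3 had 34.5 and 33.5 CPM in 2i/L, against 70.9 and 93.6 CPM in S/L. Atf4 itself fell slightly (-0.47 ± 0.18), a call lost whenever 1 library was left out, and Asns, another of its targets, rose (0.65 ± 0.18). Ero1l and Stc2, also on this list, rose and are shared with the hypoxia list. Gldc, the glycine decarboxylase gene of one-carbon metabolism in these cells, had 36.7 and 40.2 CPM in 2i/L, against 179 and 201 CPM in S/L (-2.29 ± 0.17), and the threonine dehydrogenase gene Tdh did not pass (-0.04 ± 0.21, adjusted p = 0.915).

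Without scaling, replication and mitosis genes held few calls beside the 40.2% of all genes. Cell cycle inhibitors and cyclins held more than that share. Of 29 cyclins and regulators 10 rose and 5 fell. Cdkn1a, which encodes the inhibitor p21, had 40.5 and 40.4 CPM in 2i/L, against 8.79 and 6.64 CPM in S/L. Cdkn2a, of the Ink4a and Arf locus, had 13.3 and 13.2 CPM in 2i/L, against 3.23 and 2.76 CPM in S/L. Cdkn2c had 4.42 and 5.45 CPM in 2i/L, against 0.52 and 0.91 CPM in S/L. The inhibitor Cdkn1c went the other way (-1.69 ± 0.25). The E cyclins split, with Ccne1 at 39.02 and 38.5 CPM in 2i/L, against 76.8 and 87.3 CPM in S/L (-1.07 ± 0.17) and Ccne2 at 18.3 and 18.6 CPM in 2i/L, against 6.60 and 5.70 CPM in S/L (1.51 ± 0.19). Of 26 replication genes 2 rose and 4 fell (9 with TMM scaling), and of 20 mitosis genes none rose and 2 fell. With TMM scaling 4 mitosis genes rose and 3 fell, and with 1 library left out none or 1 fell. Myc had 0.07 and 0.07 CPM in 2i/L, against 2.36 and 2.68 CPM in S/L, about 3 reads in each 2i/L library, while Mycn did not pass (0.12 ± 0.21, adjusted p = 0.669) and Mycl1 rose (0.94 ± 0.20). Of the genes that death signals use, the initiator caspase gene Casp8 rose (2.36 ± 0.26), and the death promoters Hrk (-3.38 ± 0.27) and Bmf (-1.47 ± 0.19) fell. Of 19 p53 targets 7 rose and 2 fell, and Trp53 itself did not pass (-0.18 ± 0.15, adjusted p = 0.329).

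The cytoskeleton and the cell surface were remodelled in transcript terms. Of 19 contractile genes and SRF targets 12 fell and 2 rose. Myl9, a myosin light chain, had 0 and 0.05 CPM in 2i/L, against 2.36 and 2.97 CPM in S/L. Tpm2, a tropomyosin, had 1.78 and 1.24 CPM in 2i/L, against 10.6 and 12 CPM in S/L. Zyx, of focal adhesions, had 0.86 and 1.38 CPM in 2i/L, against 3.69 and 5 CPM in S/L. In 2i/L Myl9 was at or near the limit of detection. Srf (-0.17 ± 0.16) and its cofactor gene Mkl1 (0.03 ± 0.19) did not pass, and the cofactor gene Mkl2 rose (0.87 ± 0.20). Of 13 YAP targets and partners 4 rose and 3 fell, with Ctgf (1.07 ± 0.18) and Thbs1 (-2.87 ± 0.24) at opposite ends.

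Of 24 integrin and cadherin genes 11 fell and 7 rose. The alpha integrin gene Itga9 had 0.37 and 0.75 CPM in 2i/L, against 10.3 and 10.8 CPM in S/L. Itga3, of the same family, had 9.82 and 11.9 CPM in 2i/L, against 33.6 and 33.2 CPM in S/L. Both fell. The vitronectin receptor genes Itgav (1.03 ± 0.16), Itgb3 (0.98 ± 0.28) and Itgb5 (1.04 ± 0.18) rose together. Of 18 basement membrane genes 9 fell and 5 rose, and here the collagen IV gene Col4a1 (-2.36 ± 0.21) and the laminin gene Lamb1 (-1.24 ± 0.17) fell while the nidogen genes Nid1 (1.31 ± 0.17) and Nid2 (0.96 ± 0.15) rose. Of 24 junction and keratin genes 12 fell and 8 rose. Krt8 had 0.62 and 1.15 CPM in 2i/L, against 12.7 and 11.2 CPM in S/L. Krt18, its keratin partner in simple epithelia, had 0.70 and 1.09 CPM in 2i/L, against 11.7 and 12.5 CPM in S/L. Both fell (-3.19 ± 0.22 for Krt8 and -3.19 ± 0.25 for Krt18). The gap junction gene Gja1 had 4.18 and 4.53 CPM in 2i/L, against 46.03 and 42.6 CPM in S/L (-3.21 ± 0.21). E-cadherin, encoded by Cdh1, did not pass (0.25 ± 0.15, adjusted p = 0.18).

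Of 18 fibroblast markers 13 rose and 3 fell, with a median of 1.21, and the list summed to 1256 and 1430 CPM in 2i/L, against 615.0 and 588.9 CPM in S/L. Col3a1, a collagen of connective tissue, had 41.6 and 22.7 CPM in 2i/L, against 0.52 and 0.70 CPM in S/L. Postn had 6.03 and 3.35 CPM in 2i/L, against 0.95 and 0.21 CPM in S/L. Dcn, a defining marker of fibroblasts, had 1.01 and 0.43 CPM in 2i/L, against 0 and 0.03 CPM in S/L. These genes differed about 2-fold between the 2i/L libraries, with J-34 above J-35, although the sum of the list was higher in J-35. Tagln (0.09 and 0.07 CPM in 2i/L, against 7.44 and 6.61 CPM in S/L) and Acta2 (0.09 and 0 CPM in 2i/L, against 2.82 and 2.76 CPM in S/L), contractile markers of the same list, were at or near the limit of detection in 2i/L. Fn1 and Vim, also on the list, are made by embryonic stem cells too. The part of feeder RNA in these matrix results, or in the rises given in other paragraphs, was not tested.

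Markers of other cell types did not form a single pattern. Of 11 primitive endoderm markers none rose and 7 fell, among them Lrp2 (-2.45 ± 0.24), Cubn (-1.77 ± 0.28) and Gata6 (-0.64 ± 0.23). Of 9 trophoblast markers 4 rose and 4 fell, the keratin genes Krt8 and Krt18 given above among the falls. Of those that rose, Tfap2c had 66.7 and 58.2 CPM in 2i/L, against 18.8 and 19.4 CPM in S/L. Eomes had 8.03 and 10.5 CPM in 2i/L, against 3.43 and 2.65 CPM in S/L. Of 3 mesoderm and primitive streak markers 2 rose and none fell. Gsc, a factor of the primitive streak, had 5.06 and 4.66 CPM in 2i/L, against 0.40 and 0.16 CPM in S/L. Of 3 definitive endoderm markers Cxcr4 rose (1.95 ± 0.25) and 1 fell. Of 5 neural progenitor markers 2 rose and 1 fell.

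Guidance and surface genes of neurons added many calls. Of 33 guidance genes 14 rose (8 without the J-35 S/L library and 9 without the J-35 2i/L library) and 8 fell. Sema5a, a semaphorin, had 20.6 and 25.9 CPM in 2i/L, against 1.41 and 1.25 CPM in S/L. Slit2, a secreted repellent, had 25.3 and 29.4 CPM in 2i/L, against 2.13 and 2.39 CPM in S/L. Its receptor gene Robo1 rose too (1.16 ± 0.20). Crmp1, which carries semaphorin signals inside the cell, had 0.09 and 0.02 CPM in 2i/L, against 9.22 and 13.3 CPM in S/L. Of 18 synapse and channel genes 6 rose and 6 fell. Adam23, an inactive surface protease, had 1.25 and 1.72 CPM in 2i/L, against 73.8 and 73.2 CPM in S/L, whereas its relative Adam22 rose (0.63 ± 0.20). Grin1, a subunit of the NMDA receptor, had 5.94 and 9.39 CPM in 2i/L, against 0.52 and 0.96 CPM in S/L.

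Among the 20 largest rises and 20 largest falls were genes of no list. Spic, an ETS-family factor, had 17.5 and 18.5 CPM in 2i/L, against 0.06 and 0.13 CPM in S/L. S1pr1, a receptor of sphingosine-1-phosphate, had 16.4 and 17.97 CPM in 2i/L, against 0.06 and 0.18 CPM in S/L. A2m, a secreted protease inhibitor, had 42.8 and 41.7 CPM in 2i/L, against 0.86 and 1.90 CPM in S/L. The myelin genes Mbp (3.94 ± 0.23) and Mobp (3.93 ± 0.23), the ISG15-conjugating enzyme gene Ube2l6 (4.42 ± 0.27), Aspa (4.30 ± 0.25) and Igfbp4 (3.92 ± 0.22), which binds insulin-like growth factors, rose by at least 8-fold on the same scale. Among the falls, the zinc transporter gene Slc39a14 had 1.30 and 1.67 CPM in 2i/L, against 38.8 and 38 CPM in S/L. The calcitonin gene Calca had 0.68 and 0.57 CPM in 2i/L, against 13.6 and 16.4 CPM in S/L. Kifc3 (-3.97 ± 0.21), Enox1 (-3.91 ± 0.28), Pde9a (-3.77 ± 0.24), Bdh2 (-3.71 ± 0.24) and Igsf21 (-3.54 ± 0.28) fell by at least 8-fold.

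Smaller groups moved little or in part. Of 31 lysosome and autophagy genes 11 rose (7 to 9 with 1 library left out, fewest without the J-34 S/L library) and 1 fell. The lysosomal regulator Mitf had 16.3 and 18.7 CPM in 2i/L, against 4.53 and 3.77 CPM in S/L. The autophagy kinase gene Ulk1 had 111 and 116 CPM in 2i/L, against 47.6 and 47.9 CPM in S/L. Both genes rose. Tfeb (0.14 ± 0.19) and Tfe3 (0.11 ± 0.17), relatives of Mitf, did not pass. Of 20 interferon and antigen genes 7 rose and 5 fell, with the RNA sensor gene Ddx58 lower (-1.87 ± 0.23) and Oas1a higher (1.50 ± 0.21). Of 24 oxidative stress genes 9 rose (5 without the J-34 S/L library) and 1 fell. The fall was Gstt1, at 0.02 and 0.02 CPM in 2i/L, against 1.41 and 1.82 CPM in S/L, which in 2i/L is below 3 reads. Replication-dependent histone genes are near-identical copies, and of 38 measured 9 rose and 2 fell, with 3 rises without the J-34 2i/L library, 4 without the J-35 2i/L library, 1 without the J-34 S/L library and 12 without the J-35 S/L library, where none fell.

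**Figure D5:**
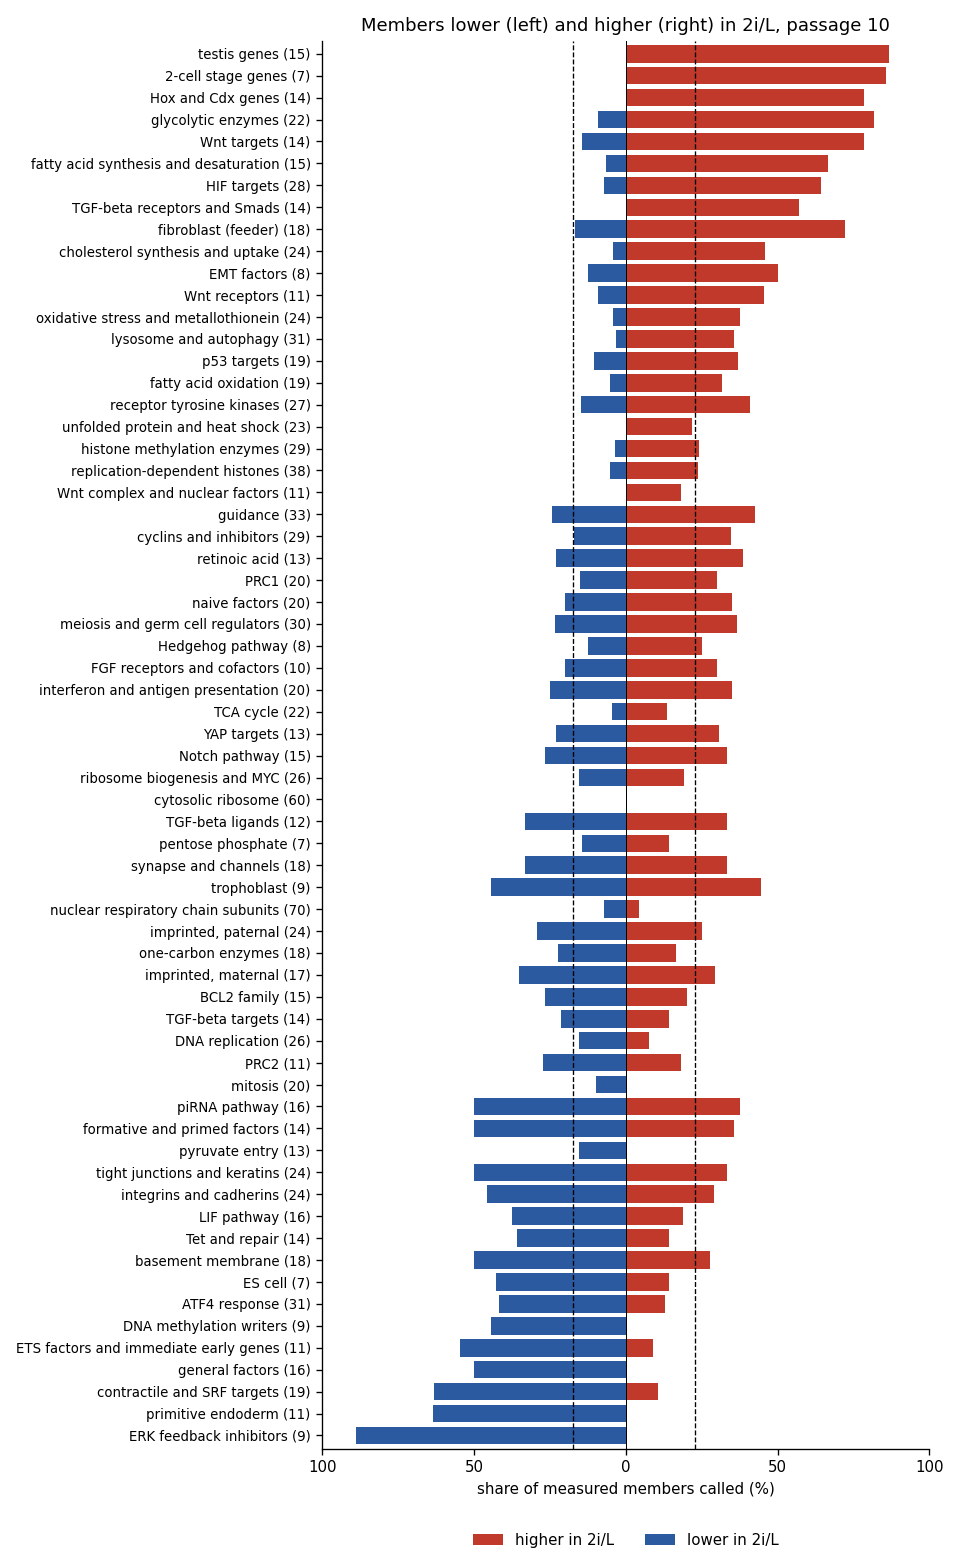
Share of the measured members of a list that rose (red, to the right) and fell (blue, to the left) in 2i/L at passage 10. The number measured stands beside each name, and lists with fewer than 7 measured members are not drawn. Dashed lines mark the shares over all genes, 22.7% for rises and 17.5% for falls; testis, 2-cell stage, glycolytic, Hox and Wnt target genes reach far to the right, and ERK feedback genes far to the left.

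The same contrast at passage 20, in libraries that the passage 10 comparison does not use, gave a partly different picture. Of the 2941 genes that rose at passage 10, 2388 (81.2%) rose and 85 fell at passage 20, where 50% of all genes rose. Of the 2268 that fell, 819 (36.1%) fell and 468 rose at passage 20, where 12.3% of all genes fell. Without scaling the median gene stood 0.33 higher in 2i/L at passage 20. With TMM scaling that median was -0.01, and the shares were 62.4% of 3359 genes for rises and 59.3% of 3032 for falls, against 32.3% and 32.1% of all genes. The difference between passages passed for 4792 genes (37%), of which 3873 were positive, and with TMM scaling for 5129 (39.6%), of which 2474 were positive. Libraries of passage 20 stood apart in other ways, with Lars2 at 14870 to 29548 CPM, against 56.9 to 117.9 CPM in the 4 libraries here, and with lower sums over genes. Passage and library set cannot be told apart. Of the 40 largest changes, Inhbb was called in opposite directions, with 0.99 at passage 20 (0.65 with TMM scaling) and -3.56 ± 0.23 at passage 10. Igfbp4 was so only with TMM scaling, which gave -0.64 at passage 20.

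Medians by chromosome lay close together. By gene symbol, RefSeq GRCm38 names placed 12641 of 12942 genes. Over the 7123 genes averaging 10 CPM or more, the median change of a chromosome ran from -0.06 on chromosome 15 to 0.15 on chromosome 16, against 0.05 over all. Chromosome 15 had medians of -0.04 in J-34 and -0.09 in J-35, and chromosome 16 had 0.16 and 0.17. The X chromosome, with 216 genes, had a median of 0.07.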

How the data were processed

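RNA-seq was measured in 19 libraries. The authors deposited CPM values per gene, with 2 decimals, each gene reaching at least 1 CPM in at least 2 libraries. Tools listed in the submitters' processing notes are HTSeq 0.6.0, STAR 2.3.0, edgeR 3.8.6, Picard and SAMtools, and the builds are NCBIM37 and mm9, with no role or order given. Whether counting used strand is not given in the sources used here, so overlapping and antisense genes are uncertain. All values of the 4 columns were whole multiples of a step within 0.005 CPM, which 34.7% to 45.4% of values would be by chance. The depths come from those steps. CPM is not adjusted for length, so levels of different genes were not compared.

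With limma 3.58.1 (R 4.3.3; lmFit, then eBayes with trend) log2(CPM + 0.5) was fitted over all 19 libraries with a mean for each of 8 groups and 11 residual degrees of freedom. Tests were two-sided and Benjamini-Hochberg adjusted over 12942 genes. No scaling was added. TMM and median ratio, other pseudocounts (0.1 and 1), filters, samples and a block by line were alternatives. TMM here was an unweighted trimmed mean of log ratios between the deposited CPM values of libraries. On simulated data for the passage 10 comparison over all genes, the fit was tested before use. The numbers pair the media by design, since both libraries of a pair come from the same line. Deviations of same-line libraries correlated at -0.011 at passage 10 and at -0.032 to 0.114 at passage 20.

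The members and gene lists were chosen with earlier results of these data known. Genes named are the 20 largest rises and falls with at least 5 CPM in both libraries of the higher group and the same direction in both lines, and members of the lists and markers, up to 5 rises and 5 falls a role with controls and partners. U4, 1600016N20Rik, Gm7901 and Lars2 were named after their values were seen. A few genes that fall under the rule are not reported here. Promoter windows and chromosome names came from RefSeq GRCm38, matched by symbol, which differs from the builds named above; 9974 genes had a window and 2039 of them several, where a motif in any counted.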

Additional observations from a re-analysis of the deposited data

Results flagged for a closer look

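Among 39 of the 40 largest changes at passage 10, 27 had a 2i/L effect that differed between passage 20 and passage 10 in limma's test of that difference, both without scaling and with TMM scaling (adjusted p under 0.05). In this test 37% of all genes passed without scaling. The values are the log2 change at passage 20 minus the log2 change at passage 10, without scaling. Of the genes that rose at passage 10, 14 had smaller changes at passage 20: Sp5 (-1.80), Spic (-0.81), S1pr1 (-1.87), Meis2 (-2.24), A2m (-4.10), Tnfrsf19 (-2.77), Tcte2 (-3.53), Gpr126 (-3.60), Xlr3c (-2.96), Dazl (-0.97), Mbp (-2.31), Mobp (-3.51), Igfbp4 (-4.22) and Notum (-1.43). Of the genes that fell, 13 had a less negative or a positive change at passage 20: Spry4 (2.86), Adam23 (4.17), Dnmt3l (1.49), Crmp1 (2.07), Slc39a14 (1.58), Utf1 (1.96), Kifc3 (3.17), Id1 (2.15), Pde9a (1.93), Bdh2 (2.63), Tagln (1.58), Inhbb (4.55) and Igsf21 (2.90). The genes were chosen for large changes at passage 10, so a smaller value at passage 20 is a description. Libraries of passage 20 stand apart in Lars2 and in their sums over genes, and the part of that in these differences was not tested. Groups of 2 libraries allow no check for a single library that stands apart.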

How the results depend on the processing

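Each medium had 2 libraries, so the spread came mostly from the other libraries of the series, and low genes rest on few reads. The replicate block by line gave 2945 rises and 2287 falls, against 2941 and 2268 without it, and with TMM scaling as well 3424 and 3069. Scaling alone gave 3359 and 3032 (TMM) or 3272 and 3137 (median ratio). A mean of at least 5 CPM left 8856 genes, fewer than tested otherwise, with 1869 rises and 1363 falls. A test against a 2-fold minimum gave 446 and 330. Fitting the 4 libraries alone gave 3761 and 3000, and 3854 and 3080 with the block. Leaving out single libraries, where the lone library is assumed to vary like the other groups, gave 2173 to 2293 rises and 1617 to 1788 falls; 1753 and 1288 genes kept their call in all 4 such fits. Of 226 called genes named here, 211 kept it and 15 lost it in at least 1: Adam22, Arnt, Asns, Atf4, Cbx2, Eno1, Etv1, Gata6, Rnf43, Slc25a31, Suclg2, Tet2, U4, Wnt5b and Wnt6. No named gene that was called changed direction under these alternatives. The 1222 listed genes held 356 rises and 239 falls, 386 and 294 with TMM scaling, 356 and 241 with the block, and 286 to 308 and 200 to 210 without single libraries. Short lists moved by more than 1.5 times without 1 library, and the cases below are examples. Naive factors and maternally expressed imprinted, basement membrane and ribosome biogenesis genes moved as much without another library than the one named. Counts of 3 or fewer calls in a list lay between 0 and 3 in all such fits. Without the J-34 2i/L library 2 receptor tyrosine kinases and 2 naive factors fell, against 4 each, and 3 maternally expressed imprinted genes rose, against 5. Without the J-35 2i/L library 3 basement membrane and 3 ribosome biogenesis genes rose, against 5 each. Without the J-34 S/L library 4 interferon genes rose, against 7. Without the J-35 S/L library 2 BCL2 family and 2 replication genes fell, against 4 each, and 2 YAP targets rose, against 4. The difference between passages, with TMM scaling chosen after seeing the data, passed upward for 2474 genes and downward for 2655, against 3873 and 919. At a mean of at least 5 CPM the medians of chromosomes 12, 16, 17 and X were 0.08, 0.13, -0.03 and 0.09. The cause of these shifts was not tested.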
